A study of Mus musculus with 2 samples.

Results

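Proliferating endothelial cells (ECs) are the ECs that carry RNA of genes used to copy the genome and to divide. They were chosen here from all sorted cells by measured values: at least 500 detected genes and at most 10% mitochondrial UMIs (unique molecular identifiers, each the count of 1 captured RNA molecule), at least 1 UMI of both endothelial genes *Cdh5* and *Pecam1*, no UMI of *Ptprc*, *Epcam*, *Cspg4*, *Myh11* or *Hmga2*, and a UMI of at least 3 of the 6 proliferation markers *Mki67*, *Top2a*, *Cenpf*, *Prc1*, *Ube2c* and *Birc5*. This gave 197 cells among 6252 ECs and 18823 cells in all, of which 132 came from the control library and 65 from the Dnmt1iECKO library. The other 6055 ECs, which passed the same filters with fewer than 3 markers, are called other ECs below.

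The study asked how deletion of the maintenance DNA methyltransferase *Dnmt1* in ECs alters tumor vessels, using YUMMER1.7, an immunogenic mouse melanoma line. The control genotype is labelled C57BL/6, and the methods give control mice with the tamoxifen-inducible VEcad-CreERT2 and ZsGreen alleles. The Dnmt1iECKO mice are Cdh5CreERT2;Dnmt1fl/fl;ZsGreenlsl/lsl, so that the promoter of *Cdh5* drives the recombinase in ECs of all organs after tamoxifen. All mice were females of 8 to 10 weeks, and live CD31+ CD45- cells from the tumors of 3 mice were pooled into each library. The labels place the tumors under the skin, whereas the methods describe lung tumors after tail vein injection. With 1 library per genotype, no test between genotypes was possible, and every interval below is a 95% interval that covers counting error only. UMIs of 1 cell are not independent of each other, so that the intervals are too narrow for genes that few cells carry, and differences between the mice cannot be told apart from differences between genotypes.

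A dividing cell passes through DNA replication, in which the MCM helicase opens the double helix and PCNA holds the polymerases on it, and then through mitosis, in which kinesins, kinetochore proteins and the anaphase machinery part the chromosomes. DNMT1 acts at the replication fork, where UHRF1 guides it to the newly made strand and it copies the methylation pattern of the old one. Adult ECs are mostly quiescent, and the lung capillary bed consists of general capillary cells, which can divide and renew it, and of aerocytes, which are thin gas exchange cells.

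Promoters of mitotic genes commonly carry a cell cycle gene homology region (CHR, here TTTGAA or TTTAAA) with CCAAT boxes, through which they are kept silent until late in the cycle, whereas replication genes commonly carry E2F sites (here TTTGGCGC, TTTCGCGC, TTTCCCGC or TTCCCGCC). The RefSeq promoters (GRCm38.p6) of 3 markers of the rule and of 2 helicase genes are shown because these gene groups are set against each other below. Each is 160 bases, read 5′ to 3′ on the strand of the gene and ending at its start, with CHR, CCAAT and E2F letters on either strand in capitals, which join where matches overlap. *Mki67* is at chr7:135716380-135716539 (minus strand), *Top2a* at chr11:99024190-99024349 (minus), *Ube2c* at chr2:164769769-164769928 (plus), *Mcm5* at chr8:75109349-75109508 (plus) and *Mcm6* at chr1:128359706-128359865 (minus).
Mki67: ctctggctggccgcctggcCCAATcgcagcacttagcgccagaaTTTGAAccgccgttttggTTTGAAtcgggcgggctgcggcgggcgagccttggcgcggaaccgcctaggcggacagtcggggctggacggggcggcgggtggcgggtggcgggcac
Top2a: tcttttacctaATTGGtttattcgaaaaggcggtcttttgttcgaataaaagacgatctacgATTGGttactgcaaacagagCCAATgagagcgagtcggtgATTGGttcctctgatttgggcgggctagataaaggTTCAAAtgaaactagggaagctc
Ube2c: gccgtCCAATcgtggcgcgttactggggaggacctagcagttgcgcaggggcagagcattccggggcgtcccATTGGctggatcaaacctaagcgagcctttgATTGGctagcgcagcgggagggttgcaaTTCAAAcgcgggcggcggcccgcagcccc
Mcm5: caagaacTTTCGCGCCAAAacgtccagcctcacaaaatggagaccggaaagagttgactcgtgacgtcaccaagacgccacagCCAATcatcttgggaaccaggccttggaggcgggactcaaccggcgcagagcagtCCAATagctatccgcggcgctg
Mcm6: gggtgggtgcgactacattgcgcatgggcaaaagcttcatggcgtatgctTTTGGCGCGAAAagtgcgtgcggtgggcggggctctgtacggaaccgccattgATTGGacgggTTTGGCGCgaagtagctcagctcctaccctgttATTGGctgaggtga

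Searched on both strands in the 250 bases before the start, CHR letters were present in all 6 rule markers, in 16 of 48 matched mitotic genes and in 5 of 28 matched replication genes, against 28.1% of the 27025 promoters of the table. CCAAT letters were present in 5 of 6, 32 of 48 and 18 of 28, against 37.5% of all promoters. E2F letters were present in 0 of 6, 3 of 48 and 10 of 28, against 3.36% of all promoters. Among the 5393 matched genes with at least 100 UMIs in the members, the shares were 20.5% for CHR, 41.0% for CCAAT and 7.38% for E2F letters. These matches are descriptions of letters and not evidence of binding.

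The share of cells with at least 3 proliferation markers was higher in the Dnmt1iECKO library at each step of the selection, and after the quality filters the difference narrowed. Among all cells it was 4.56% in control and 7.28% in Dnmt1iECKO. Among cells that passed the quality filters, 400 of 8021 control cells (4.99%, interval 4.52 to 5.49) and 666 of 8102 Dnmt1iECKO cells (8.22%, 7.63 to 8.84) had at least 3 markers. Among those with *Cdh5* and *Pecam1* UMIs the shares were 3.69% (3.21 to 4.23) and 5.35% (4.50 to 6.31), a log2 ratio of 0.53 (0.21 to 0.86). Once the exclusion genes were required to be at 0, 132 of 4448 control ECs (2.97%, 2.49 to 3.51) and 65 of 1804 Dnmt1iECKO ECs (3.60%, 2.79 to 4.57) remained, a log2 ratio of 0.28 (−0.17 to 0.72) whose interval includes 0. With 2 or more markers in place of 3 the ratio was 0.39 (0.025 to 0.75), an interval above 0. The exclusion genes removed 35% of the control and 51.1% of the Dnmt1iECKO cells with 3 or more markers, compared with 18.4% and 26.1% of those with fewer. In cells with 3 or more markers, *Ptprc*, the gene of the leukocyte antigen CD45 that the sort selects against, was found in 32 of 203 control and 37 of 133 Dnmt1iECKO cells. At an equal depth of 2000 UMIs per cell, 1.73% of control and 2.27% of Dnmt1iECKO ECs had 3 or more markers, and at 5000 UMIs 2.43% and 3.25%.

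**Figure D1:**
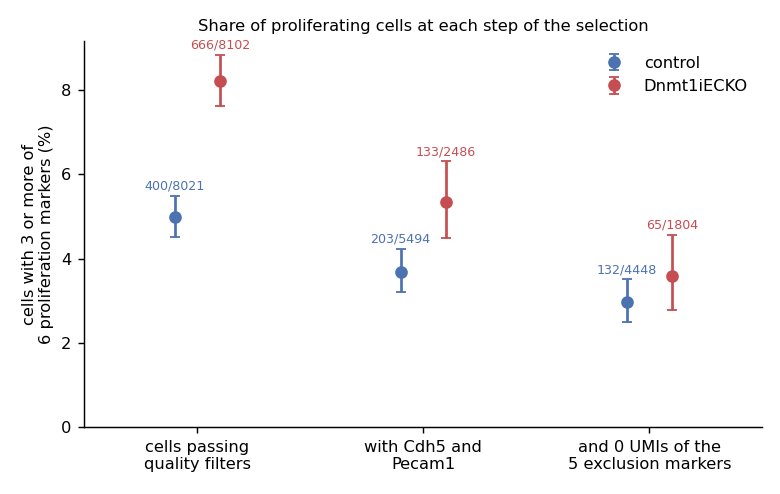
Percentage of cells with 3 or more of the 6 proliferation markers (y axis) at each step of the selection (x axis), for the control and Dnmt1iECKO libraries. Points are shares, bars are exact Clopper-Pearson 95% intervals and the fractions give cells; the gap narrows from 4.99% and 8.22% on the left to 2.97% and 3.60% on the right, where the intervals overlap.

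The members ranged from cells at the edge of the rule to cells rich in every marker. All 6 markers were found in 63 of 132 control and 41 of 65 Dnmt1iECKO members, with medians of 34 and 49 UMIs of *Mki67* and 37 and 56 of *Top2a*. Just inside the rule, 28 control and 11 Dnmt1iECKO cells had exactly 3 markers, with medians of 1 and 1 *Mki67* UMIs and 1 and 0 *Top2a* UMIs. Just outside it, 54 control and 34 Dnmt1iECKO cells had 2 markers, with medians of 0 and 1 *Mki67* UMIs. Over all members, *Mki67*, which coats mitotic chromosomes, ran from 0 to 223 UMIs per cell with a median of 9.5 in control and from 0 to 132 with a median of 15 in Dnmt1iECKO cells. Members held more RNA than other ECs, with median depths of 16696.5 control and 24416 Dnmt1iECKO UMIs per cell against 9862.5 and 9995, and the part of depth in the selection was not tested beyond the thinned shares above.

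As a group, the members carried endothelial genes that the rule did not use. The sums below are taken over cells and do not show this for every member. Claudin-5 (*Cldn5*), the angiopoietin receptor *Tie1*, the transcription factor *Erg*, endomucin (*Emcn*) and 4 more endothelial genes were all detected, and the 10 endothelial markers, with *Cdh5* and *Pecam1* among them, summed to 6323 CPM (UMIs scaled to a total of 1e+06 per cell group) in control and 5646 CPM in Dnmt1iECKO members, compared with 8102 and 7675 CPM in other ECs. Immune markers summed to 25.4 and 58.1 CPM in members and 51.2 and 82.7 CPM in other ECs, with *Cd3e* at 0 in the members. Melanoma markers summed to 21.9 and 12.5 CPM, nearly all of it *Mitf*, while *Tyrp1*, *Tyr*, *Dct*, *Sox10* and *Mlana* were at 0. Thymocyte markers summed to 0 and 1.63 CPM, mesothelial markers to 0 and 7.06 CPM, and epithelial markers to 96.8 and 58.1 CPM, the last of these below the 215 and 80.4 CPM of other ECs. Mural markers at 20.4 and 45.6 CPM, fibroblast markers at 77.0 and 189 CPM and platelet markers at 45.2 and 109 CPM were higher in Dnmt1iECKO than in control members, and their part in the comparisons below was not tested. Of the markers in these sums, *Ptprc*, *Epcam*, *Cspg4*, *Myh11* and *Hmga2* were at 0 by the rule and carry no information. Other ECs had 36.6 and 34.0 CPM of mural, 278 and 487 CPM of fibroblast and 101 and 128 CPM of platelet markers. Part of the member values sat in single cells. Between genotypes, the 2 fibroblast genes with at least 100 UMIs in the members had a median log2 ratio of 0.94. It was −0.018 without the UMIs of each gene's top cell in each library. For the 1 such platelet gene the ratio was 1.02, and 0.46 without its top cells. This step leans ratios lower.

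Of 6773 genes with at least 100 UMIs in the members of both libraries together, 455 (6.72%) were at least 2-fold higher and 91 (1.34%) at least 2-fold lower than in other ECs in both libraries. Because the rule selects cycling cells, these values describe the members and test nothing. All 14 tested genes of G2 and mitotic entry, all 26 of the spindle and kinetochore, all 8 of cytokinesis and all 16 of the condensin and chromatin group were among the 455, as were 26 of 28 replication genes and 7 of 7 genes of nucleotide supply. The median log2 excess over other ECs was 6.73 in control and 7.0 in Dnmt1iECKO members for the G2 and mitotic entry genes, and 2.72 and 2.27 for the replication genes. Outside the rule's markers, the 10 genes with the largest excess in both libraries were *Troap*, *Neil3*, *Pimreg*, *Hmmr*, *Depdc1a*, *Mxd3*, *Ska1*, *Kif2c*, *Cep55* and *Knl1*. Of these *Hmmr*, a spindle protein also known as a hyaluronan receptor, stood at log2 8.82 and 8.92 above other ECs, *Knl1*, the kinetochore scaffold, at 8.33 and 8.24, and *Neil3*, a DNA glycosylase, at 9.83 and 9.56.

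Brakes on the cycle had a median log2 ratio to other ECs of −0.035 in control and −0.29 in Dnmt1iECKO members. Of 12 tested inhibitors and quiescence genes, 2 were at least 2-fold higher than in other ECs, namely *Cdkn2c*, which encodes the CDK4 and CDK6 inhibitor p18, at log2 3.39 in control and 3.28 in Dnmt1iECKO, and *Cdkn2d*, which encodes p19, at 2.13 and 1.89. *Cdkn1a*, the p53 target that encodes p21, was within 0.1 of its level in other ECs on the log2 scale (−0.05 and −0.09), and 0 of 16 tested p53 targets were past 2-fold in both libraries in either direction. Of the G1 cyclins, *Ccnd2* was lower than in other ECs (−0.66 and −1.27), whereas *Ccnd1* was slightly higher (0.34 and 0.12).

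*Dnmt1* itself was higher in proliferating than in other ECs in both genotypes and lower in Dnmt1iECKO than in control in both cell groups. Members had 382 *Dnmt1* UMIs in control, or 137 CPM, and 130 in Dnmt1iECKO, or 70.6 CPM, a log2 ratio of −0.96 (−1.25 to −0.67). Other ECs had 44.7 and 22.5 CPM, a ratio of −0.99, and the members exceeded them by log2 1.61 in control and 1.65 in Dnmt1iECKO. A *Dnmt1* UMI was seen in 85 of 132 control members (64.4%) and in 38 of 65 Dnmt1iECKO members (58.5%). After thinning to 2000 UMIs these shares were 14.6% and 10.8%, compared with 8.15% and 4.77% of other ECs. They were 2.50% and 4.49% of epithelial-like cells, which the recombinase does not target and which stood at medians of 20885 and 24911 UMIs before thinning. At 5000 UMIs the shares of members were 42.1% (33.2 to 51.5) in control and 20.6% (11.5 to 32.7) in Dnmt1iECKO. These libraries read the 3′ ends of transcripts, and whether RNA from the deleted allele keeps that end is not given in the sources used here, so that the remaining *Dnmt1* UMIs do not tell unrecombined cells from deleted ones.

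**Figure D2:**
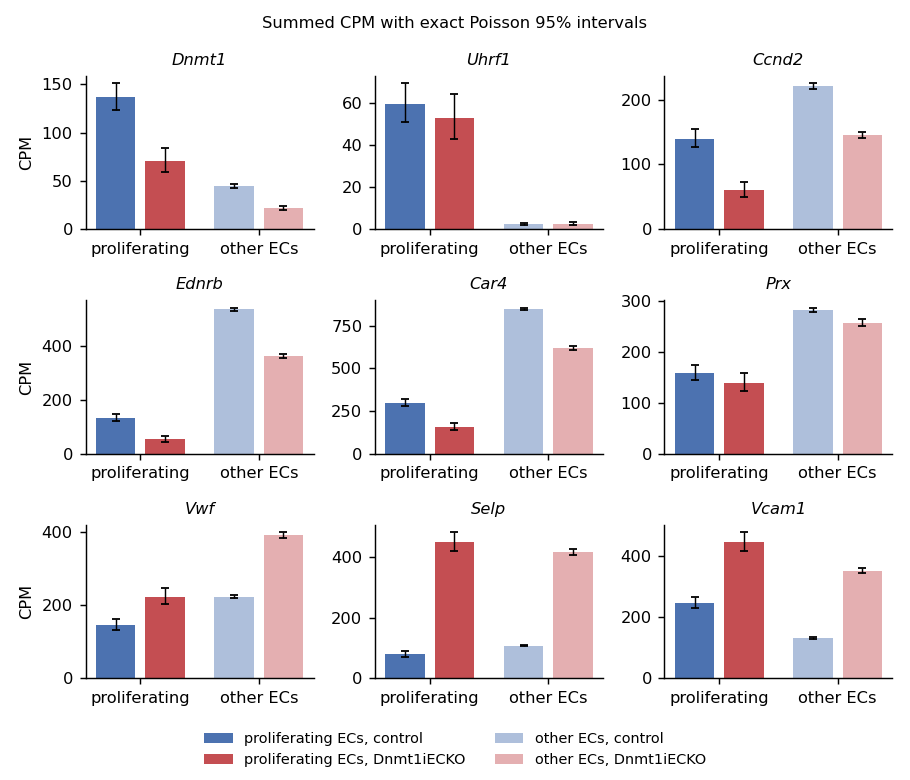
Summed CPM (y axis, from 0 and scaled per gene) of 9 genes in proliferating ECs (dark bars) and other ECs (light bars) of the control (blue) and Dnmt1iECKO (red) library, with exact Poisson 95% intervals. *Dnmt1* is lower in Dnmt1iECKO in both cell groups (137 and 70.6 CPM in members), *Uhrf1* is high in members of either library, the aerocyte genes *Ednrb* and *Car4* are low in members, and *Selp* and *Vcam1* are higher in Dnmt1iECKO in both cell groups.

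The partners of *Dnmt1* differed less. *Uhrf1* stood at 59.5 CPM in control and 52.6 CPM in Dnmt1iECKO members (log2 ratio −0.18, −0.55 to 0.19), and exceeded other ECs by 4.66 and 4.30. *Hells*, a chromatin remodeler needed for DNA methylation, stood at 74.5 and 58.6 CPM (−0.35, −0.70 to −0.0046), and *Usp7*, a deubiquitinase that stabilizes DNMT1, at 116 and 85.7 CPM (−0.44, −0.73 to −0.16). The de novo methyltransferase *Dnmt3a* had 49.5 and 45.6 CPM (−0.12, −0.53 to 0.28), whereas *Dnmt3b* was near the limit of detection at 10.4 and 5.97 CPM. The demethylating enzymes *Tet2* (43.4 and 42.9 CPM) and *Tet3* (67.0 and 72.2 CPM) and the glycosylase *Tdg* (43.7 and 43.4 CPM) had intervals of the ratio that include 0, as did the UHRF1 relative *Uhrf2* (142 and 160 CPM). *Tet1* was at 11.8 and 15.7 CPM and *Mbd4* at 13.3 and 16.8 CPM, both under the 100 UMIs required. Of the 9 tested genes of the methylation list, 1 was past 1.5-fold, and it was *Dnmt1*, the gene that the study deleted. Over all 6773 tested genes, 2.97% were past 1.5-fold higher and 3.09% past 1.5-fold lower.

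Pooled over cells, genes of replication leaned lower and genes of mitosis higher in Dnmt1iECKO members, but the direction of the replication genes turned without the 10% of cells with the most UMIs (median 0.041) and as a mean over single cells (0.031). In Dnmt1iECKO compared with control members, 201 of the 6773 genes were at least 1.5-fold higher (2.97%) and 209 at least 1.5-fold lower (3.09%), and the median log2 ratio of all 6773 was −0.017. Of 28 tested replication genes, 24 were below 0, with a median of −0.25, and 2 were past 1.5-fold lower, the licensing factor *Cdc6* (26.9 and 15.2 CPM, log2 ratio −0.82, −1.50 to −0.18) and the helicase subunit *Mcm4* (83.1 and 53.2 CPM, −0.64, −1.0 to −0.30). *Pcna* was at 254 and 196 CPM (−0.37, −0.56 to −0.19) and the polymerase subunit *Pola1* at 151 and 144 CPM (−0.06, −0.29 to 0.16). The exceptions above 0 included *Gmnn*, which encodes the licensing inhibitor geminin, at 63.8 and 87.4 CPM (0.45, 0.14 to 0.77). In other ECs the median of the same replication genes was 0.055.

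Genes of G2 and mitosis leaned the other way. Of 14 tested genes of G2 and mitotic entry, 13 were above 0 with a median of 0.26, and 1 was past 1.5-fold, the phosphatase *Cdc25b* (33.7 and 53.7 CPM, 0.67, 0.25 to 1.10). The mitotic kinase *Cdk1* was at 199 and 257 CPM (0.37, 0.19 to 0.55) and its cyclin *Ccnb2* at 169 and 208 CPM (0.30, 0.10 to 0.50), while *Ccna2* was level at 129 and 129 CPM. Of 26 spindle and kinetochore genes 24 were above 0 with a median of 0.21, and 1 was past 1.5-fold higher, the kinesin *Kif22* (78.8 and 119 CPM, 0.59, 0.32 to 0.87), chosen for mention after its value was seen. Of 8 cytokinesis genes 7 were above 0 with a median of 0.27, such as the scaffold *Anln* at 218 and 271 CPM (0.32, 0.14 to 0.49). The 10 genes of the checkpoint and anaphase (median −0.017), the 16 of the condensin and chromatin group (0.056) and the 7 of nucleotide supply (−0.016) had medians close to 0. All 6 rule markers lay above 0, from 0.016 for *Top2a* to 0.27 for *Ube2c*. Since the members were chosen by these genes, the values are description only.

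The UMIs of replication histones did not follow those of the replication genes. Of 12 tested genes, 5 were at least 1.5-fold higher in Dnmt1iECKO members and 0 lower, with a median of 0.42. *Hist1h1e*, a linker histone, stood at 447 and 573 CPM (0.36, 0.24 to 0.48) and the core histone *Hist1h2ae* at 144 and 262 CPM (0.86, 0.67 to 1.06). *Hist1h2ab*, chosen after its value was seen, had the largest ratio, at 44.8 and 89.5 CPM (1.00, 0.66 to 1.35). The median of the same genes in other ECs was 0.37. Histone genes are near-identical copies of each other, so that the split of UMIs between single members is uncertain. How fully these 3′ libraries capture histone RNA was not tested.

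The balance was also read cell by cell, as the share of replication UMIs among those of 34 replication and 59 mitotic genes. Pooled over cells this share was 20.1% in control and 16.0% in Dnmt1iECKO members, and the log2 ratio of replication to mitotic UMIs differed by −0.39 (−0.47 to −0.32). Per cell it ran from 0 to 84.2% with a median of 21.4% in control and from 0 to 88.6% with a median of 17.5% in Dnmt1iECKO members, so that both libraries covered the same range. More replication than mitotic UMIs were held by 15 of 132 control (11.4%) and 8 of 65 Dnmt1iECKO members (12.3%), and more than 100 mitotic UMIs by 55 and 37. When each cell was scaled to the same total before pooling, the shares were 18.0% and 17.0% and the difference −0.10. Cells rich in these genes still weighed more in that share. Without the 10% of cells with the most UMIs the pooled difference was −0.33 (−0.41 to −0.24).

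**Figure D3:**
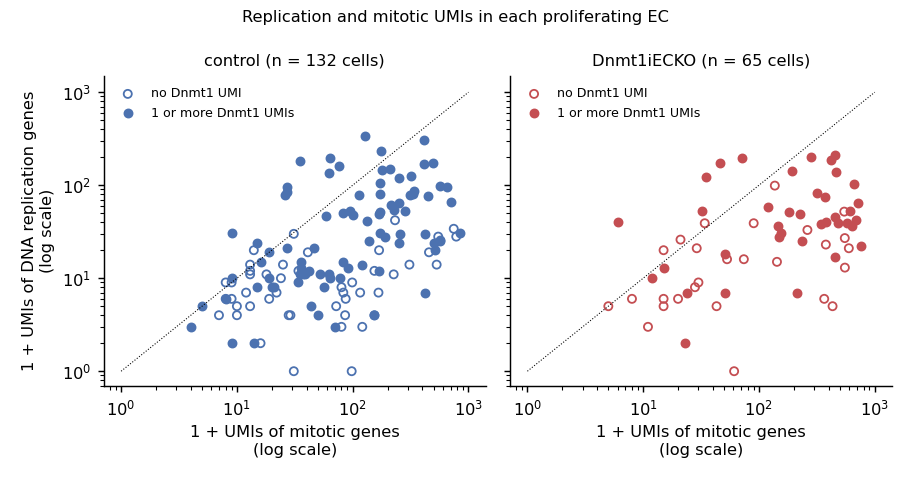
UMIs of 34 DNA replication genes (y axis) against UMIs of 59 mitotic genes (x axis) in each proliferating EC, 1 added to both and both axes on a log scale, for 132 control (left) and 65 Dnmt1iECKO cells (right). Filled points are cells with a *Dnmt1* UMI, the dotted line marks equal UMIs, and 15 control and 8 Dnmt1iECKO cells lie above it.

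In the cells above that line, where replication UMIs outnumbered mitotic ones, *Dnmt1* was read separately from the rest, as a description. The 15 control cells held 90 *Dnmt1* UMIs, between 0 and 18 per cell with a median of 3, or 248 CPM (199 to 305). The 8 Dnmt1iECKO cells held 13, between 0 and 4 per cell with a median of 1.5, or 49.0 CPM (26.1 to 83.7), a log2 ratio of −2.34 (−3.30 to −1.49). Without the cell with the most *Dnmt1* UMIs in each library it was −2.47. In the other members *Dnmt1* was at 120 and 74.2 CPM, a ratio of −0.70 (−1.02 to −0.38). With 1 library per genotype and few cells, whether the 2 ratios differ was not tested. *Uhrf1*, another gene of S phase, was at 163 and 79.1 CPM in the replication-rich cells and at 44.1 and 48.2 CPM in the rest, so that it too was lower in the replication-rich Dnmt1iECKO cells. The line was drawn after the data were seen, the share is continuous across it, and 21 control and 11 Dnmt1iECKO cells lay between 40% and 60%.

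Regulators of the entry into S phase leaned lower in Dnmt1iECKO members, with 2 of 15 past 1.5-fold lower, 0 higher and a median of −0.18, which turned to 0.052 without the 10% of cells with the most UMIs. *Ccnd2*, the D-type cyclin, stood at 140 CPM in control and 60.2 CPM in Dnmt1iECKO members (−1.21, −1.53 to −0.91), and was lower in other ECs too (−0.61). The S phase cyclin *Ccne2*, chosen after its value was seen, was at 52.0 and 32.0 CPM (−0.70, −1.16 to −0.25), with −0.76 in other ECs. *Ccnd1* was at 698 and 588 CPM (−0.25, −0.35 to −0.14). Of the 12 inhibitors and quiescence genes 1 was past 1.5-fold, the retinoblastoma relative *Rbl2*, lower in Dnmt1iECKO (32.3 and 20.6 CPM, −0.65, −1.23 to −0.083). *Cdkn1a* was at 731 and 593 CPM (−0.30, −0.41 to −0.20) and *Klf2*, a flow-induced factor of quiescent endothelium, at 834 and 664 CPM (−0.33, −0.43 to −0.23). The 16 p53 targets had a median of −0.095, with 2 past 1.5-fold lower, *Gdf15* (36.6 and 8.68 CPM, −2.07, −2.93 to −1.31) and, chosen after its value was seen, the death receptor *Tnfrsf10b* (40.9 and 16.3 CPM, −1.33, −1.96 to −0.74). The 5 tested genes of replication-coupled repair were all above 0, between 0.029 and 0.18, with none past 1.5-fold.

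**Figure D4:**
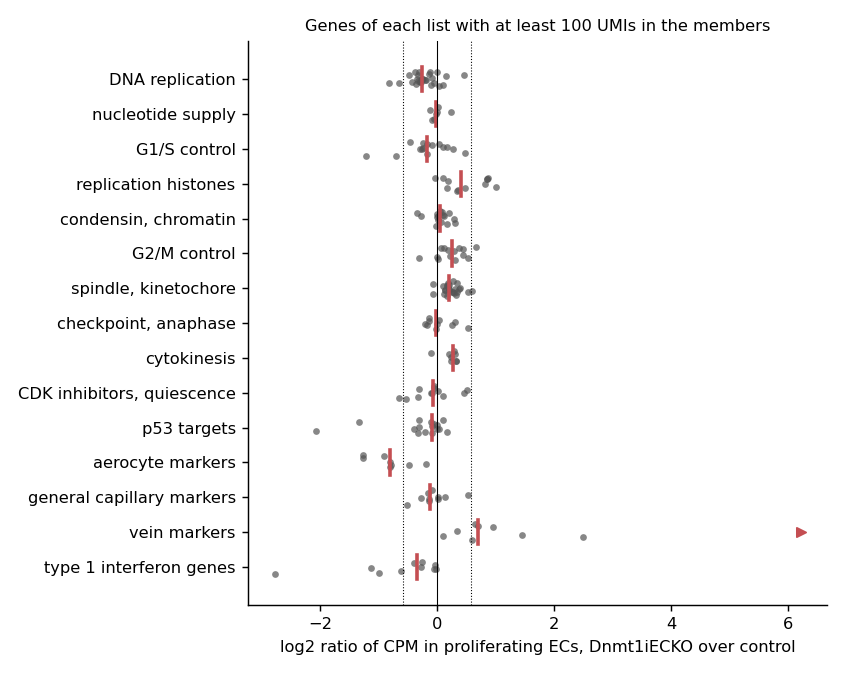
Log2 ratio of CPM, Dnmt1iECKO over control (x axis), for each gene with at least 100 UMIs in the members (points), by gene list (rows), with the median of each list as a red bar and 1.5-fold as dotted lines. The arrow stands for *Ackr1*, which had no control UMI, at its lower bound of 6.22; the replication genes (median −0.25, or 0.041 without the deepest cells), the spindle genes (0.21), the aerocyte markers (−0.80) and the vein markers (0.69) lie on different sides of 0.

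Vessel bed identity was read from marker lists that the rule did not use. Aerocyte genes were low in the members of both libraries, with 6 of 8 tested at least 2-fold below other ECs and medians of −1.50 in control and −1.90 in Dnmt1iECKO. General capillary genes were lower too, with 2 of 10 at least 2-fold below other ECs and medians of −0.57 and −0.70. For artery genes the medians were −0.29 and −0.72, and for vein genes −0.35 and 0.38. Tip cell genes stood at 0.75 and 0.50, lymphatic genes at 0.58 and −0.025, and the endothelial markers at −0.22 and −0.31. After thinning, 35 of 130 control members (26.9%) and 17 of 65 Dnmt1iECKO members (26.2%) had 3 or more aerocyte markers, compared with 43.2% and 38.5% of other ECs, a log2 ratio of −0.68 (−1.21 to −0.20) in control and −0.56 (−1.35 to 0.13) in Dnmt1iECKO. At 5000 UMIs per cell the ratio in control was −0.36 (−0.75 to 0.0072), which includes 0, and in Dnmt1iECKO −0.59 (−1.25 to 0.0078). In terms of cells with 3 or more markers of a bed, proliferating cells made up 1.92% and 2.60% of aerocyte-like and 3.23% and 3.36% of general capillary-like ECs. They made up 4.74% and 5.94% of vein-like, 2.14% and 2.09% of artery-like and 3.26% and 4.98% of tip-like ECs, and 3 of 32 and 1 of 19 lymphatic-like ECs. Over all ECs before thinning the shares were 2.97% and 3.60%, and only the interval of aerocyte-like control ECs (1.34 to 2.66) left them out. At 5000 UMIs the shares were 3.89% and 5.21% of vein-like and 3.66% and 4.56% of general capillary-like ECs, so that the beds are not ranked here. Classes overlap, since 1 cell can meet several lists.

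Between genotypes, 6 of 8 aerocyte genes were at least 1.5-fold lower in Dnmt1iECKO members and 0 higher, with a median of −0.80 compared with −0.50 in other ECs. The endothelin receptor *Ednrb* was at 134 and 55.9 CPM (−1.26, −1.59 to −0.94), compared with 536 and 364 CPM in other ECs. The carbonic anhydrase *Car4* was at 299 and 159 CPM (−0.91, −1.11 to −0.72) and the membrane protein *Emp2* at 698 and 405 CPM (−0.79, −0.91 to −0.66). Periaxin (*Prx*) was at 159 and 139 CPM (−0.19, −0.41 to 0.038) and stayed within 1.5-fold. The shares of aerocyte-like members were 26.9% and 26.2% at 2000 UMIs per cell (log2 ratio −0.042, −0.97 to 0.83) and 50.4% and 36.5% at 5000 UMIs (−0.47, −1.23 to 0.25), with both intervals wide and including 0. None of the 10 general capillary genes was past 1.5-fold, with a median of −0.11. The 8 tip cell genes had a median of −0.24, with the collagen chain *Col4a1* at 1363 and 1109 CPM (−0.30, −0.38 to −0.22), and none was past 1.5-fold. Of 17 angiogenic genes 1 was past 1.5-fold, the receptor *Fgfr3* (38.0 and 23.9 CPM, −0.67, −1.21 to −0.15), and the main VEGF receptor *Kdr* stood at 536 and 386 CPM (−0.47, −0.60 to −0.34). Of 6 tested artery genes 1 was higher and 1 lower, with a median of −0.33, and of 4 tested lymphatic genes 2 were lower, with a median of −0.44, one of them *Ccl21a*, whose 1362 control and 427 Dnmt1iECKO UMIs sat in 4 and 1 cells.

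Vein genes were higher in Dnmt1iECKO members. Of 9 tested, 7 were at least 1.5-fold higher and 0 lower, with a median of 0.69 compared with 0.86 in other ECs. Without the top cell of each gene in each library 5 of the 9 were past 1.5-fold higher. This step takes off the UMIs of that cell and keeps the library totals. It removes 1 of 65 Dnmt1iECKO but 1 of 132 control members, so that it leans ratios lower. *Selp*, the P-selectin that slows leukocytes on venules, was at 79.6 and 450 CPM (2.50, 2.29 to 2.72). Of its 830 Dnmt1iECKO UMIs 350 sat in 1 cell, and the ratio was 2.16 without the top cell of this gene in each library. *Nr2f2*, the transcription factor of venous fate, was at 42.6 and 117 CPM (1.45, 1.12 to 1.79), *Lrg1* at 175 and 338 CPM (0.95, 0.78 to 1.13) and von Willebrand factor (*Vwf*) at 147 and 223 CPM (0.61, 0.40 to 0.81). *Ackr1*, the chemokine receptor of post-capillary venules, had 0 control UMIs and 148 in 5 Dnmt1iECKO cells, which makes it at least 74.7-fold higher against a floor of 3 UMIs in the control library. Of the 148, 89 sat in 1 cell, without which the bound was 30.6-fold. The share of vein-like members was 8.46% (11 of 130) in control and 18.5% (12 of 65) in Dnmt1iECKO, a log2 ratio of 1.13 (−0.18 to 2.45), alongside 5.34% and 11.5% of other ECs, a ratio of 1.10 (0.82 to 1.39).

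Genes of leukocyte contact were divided. Of 9 tested, 4 were at least 1.5-fold higher and 1 lower in Dnmt1iECKO members, with a median of 0.18. The median moved to −0.036 without the top cell of each gene, a step that leans ratios lower. *Vcam1*, the adhesion receptor for lymphocyte integrins, was at 248 and 448 CPM (0.85, 0.70 to 1.00), and at 133 and 353 CPM in other ECs (1.41). E-selectin (*Sele*) at 56.3 and 140 CPM (1.32, 1.02 to 1.61) and the T cell chemokine *Cxcl9* at 145 and 366 CPM (1.33, 1.15 to 1.51) were also higher. *Cxcl10* was at 567 and 618 CPM (0.13, 0.015 to 0.24) and *Icam1* at 561 and 542 CPM (−0.05, −0.17 to 0.066), while the costimulatory receptor *Cd40* was lower at 49.5 and 28.8 CPM (−0.78, −1.27 to −0.32). *Cxcl9* and *Cxcl10* were higher in proliferating than in other ECs, by 1.99 and 1.66 in control and by 1.67 and 1.33 in Dnmt1iECKO.

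Of 24 tested interferon genes, 0 were past 1.5-fold higher and 4 lower, 6 were above 0, and the median was −0.045, which turned to 0.091 with 2 or more markers in place of 3. The class I genes H2-K1 (2178 and 2210.4 CPM, 0.02, −0.036 to 0.079) and H2-D1 (2460.1 and 2409.6 CPM, −0.03, −0.085 to 0.025) had intervals that include 0, and *B2m* was slightly higher at 4941 and 5499.7 CPM (0.15, 0.12 to 0.19). The 4 lower genes all belong to the type I response and were chosen after their values were seen, apart from *Rsad2*, which was among the 8 lowest of all genes. *Rsad2*, which encodes the antiviral protein viperin, was at 78.1 and 11.4 CPM (−2.78, −3.50 to −2.13), with 91 of its 218 control UMIs in 1 cell and a ratio of 0.60 in other ECs. *Cmpk2* was at 73.5 and 33.6 CPM (−1.13, −1.56 to −0.71), *Ifit3* at 103 and 51.6 CPM (−1.0, −1.35 to −0.66) and *Ifit1* at 86.4 and 56.4 CPM (−0.61, −0.96 to −0.28). Of these 4 genes, 3 stayed past 1.5-fold lower without the top cell of each gene in each library, a step that leans ratios lower. Germline genes that DNA methylation keeps silent had 1 UMI in control and 22 in Dnmt1iECKO members, and 15 of the 19 were at 0 in both. Of the 22, 19 belonged to *Tuba3b*, in 4 cells, a gene with near-identical relatives.

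The largest differences of single genes rested on few cells. Among the 8 highest ratios, 1 Dnmt1iECKO cell with all 6 markers and 62999 UMIs held 248 of 252 *Saa3*, 776 of 790 *Spp1*, 3245 of 3449 *Mgp* and 292 of 346 *Timp1* UMIs. Without the top cell of each gene in each library the ratio of *Spp1* (osteopontin) was −0.59 in place of 4.80. It was −0.042 in place of 3.57 for *Mgp* (matrix Gla protein) and 0.80 in place of 3.28 for *Timp1*. *Saa3*, an acute phase protein, had 0 control UMIs and is bounded at log2 6.99 or more by the floor of 3. *Ptgs2*, the inducible cyclooxygenase, was at 3.23 and 68.4 CPM (4.41, 3.44 to 5.57), with a UMI in 7 Dnmt1iECKO cells. *Gdpd3*, a phospholipase of lipid mediator synthesis, was spread over cells, with a UMI in 15 of 132 control and 32 of 65 Dnmt1iECKO members, 6.09 and 70.6 CPM (3.53, 2.80 to 4.36), and a ratio of 4.61 in other ECs.

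At the low end, 1 control cell with 3 markers held 1134 of 1258 *Hbb-bs*, 269 of 334 *Hba-a1*, 279 of 279 *Hbb-bt* and 222 of 261 *Hba-a2* UMIs, the hemoglobin genes of red cells, which had 2, 9, 0 and 0 UMIs in Dnmt1iECKO members. Other low genes were spread over cells. The ribosomal protein gene *Rpl29* was at 902 and 193 CPM (−2.23, −2.39 to −2.07), with a UMI in 130 control and 60 Dnmt1iECKO members and a ratio of −2.26 in other ECs, whereas the 76 other ribosomal protein genes tested had a median of 0.24 and a range from −0.022 to 0.63. *Cyp1a1*, the enzyme induced by the aryl hydrocarbon receptor, was at 49.8 and 6.51 CPM (−2.94, −3.92 to −2.08), with a UMI in 43 and 8 cells and a ratio of −2.46 in other ECs. Of the 201 higher and 209 lower genes, 131 and 203 stayed past 1.5-fold without the top cell of each gene in each library. Since that step leans ratios lower, these counts do not compare how firm the higher and the lower genes are. Also past 1.5-fold in other ECs were 66 and 21, and 15 and 4 had at least 50% of the member UMIs of the higher library in 1 cell.

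**Figure D5:**
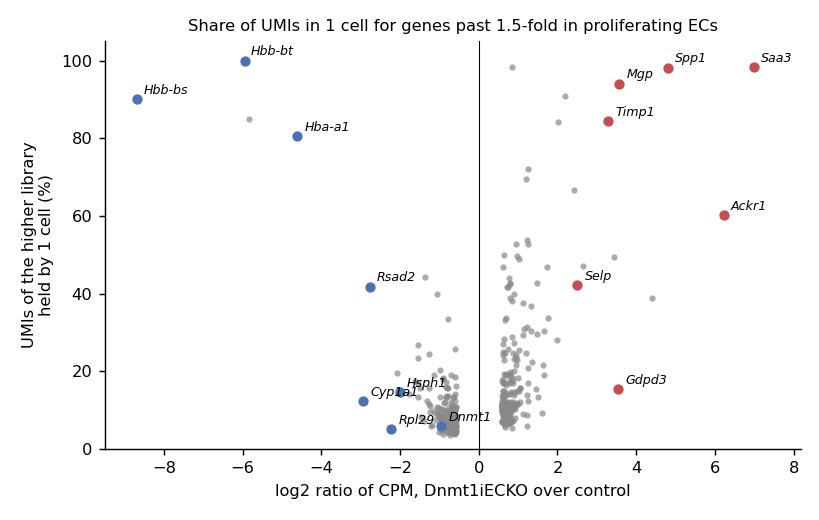
Percentage of the higher library's UMIs that 1 cell holds (y axis) against the log2 ratio of CPM, Dnmt1iECKO over control (x axis), for the 201 higher and 209 lower genes of the members; genes at 0 in a library are drawn at their bound. *Spp1*, *Saa3*, *Mgp* and *Timp1* on the right and the hemoglobin genes on the left lie above 80%, whereas *Gdpd3*, *Rpl29* and *Cyp1a1* lie under 20%.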

How the data were processed

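The values are UMI counts per gene and cell deposited by the authors for 1 control and 1 Dnmt1iECKO library of 10x Genomics 3′ single-cell RNA-seq, made with Cell Ranger 9.0.1 on mm10 (per the file headers and the submitters' processing notes), with cells already called and no normalization. The libraries shared 29 barcodes, none of a member. Counts were summed over cells and divided by the UMIs of the group (CPM), with exact Poisson intervals. Ratios had exact conditional intervals, apart from the balance of replication to mitotic UMIs, whose interval was a normal approximation. Shares had Clopper-Pearson intervals. Values were computed with pandas 2.3.3, scipy 1.17.1 and numpy 2.4.6 (Python 3.11.15) and plotted with matplotlib 3.10.9. Genes needed 100 UMIs in the members, and cells were thinned to 2000 UMIs for shares. Doublets were kept and marked with Scrublet (scanpy 1.11.5) for an alternative. The calculation was checked on simulated counts. The members, gene lists and named genes were chosen with earlier results of these data known. The named genes are the rule's markers, the methylation list, the 5 most abundant genes of each other list, the 8 highest and 8 lowest ratios between genotypes, and the 10 highest and 10 lowest against other ECs. One gene that this rule covers is not reported here. Other genes given with values, among them *Cdc6*, *Mcm4*, *Gmnn*, *Cdc25b*, *Rbl2*, *Fgfr3*, *Cd40*, *Sele*, *Ccl21a* and the markers of vessel beds, were chosen after their values were seen.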

Additional observations from a re-analysis of the deposited data

Results flagged for a closer look

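The named genes with at least 100 UMIs in the members were searched for opposite differences between genotypes in proliferating and in other ECs. A gene had to differ by at least 1.5-fold in both cell groups, with both intervals excluding equal levels. This held for 6 genes, whose log2 ratios of Dnmt1iECKO over control follow. Genes with smaller opposite ratios, such as *Pcna* (−0.37 and 0.038), are left out. The difference between cell groups was not tested, since each genotype has 1 library. *Saa3* was at least 6.99 in proliferating and −0.91 in other ECs. The hemoglobin genes were at −8.70 and 1.45 for *Hbb-bs*, −4.62 and 1.31 for *Hba-a1*, at most −5.94 and 1.56 for *Hbb-bt*, and at most −5.84 and 1.48 for *Hba-a2*. The antiviral gene *Rsad2* was at −2.78 and 0.60. In the proliferating cells of the higher library, 1 cell held 98.4% of the *Saa3* UMIs, 90.1% of *Hbb-bs*, 80.5% of *Hba-a1*, 100% of *Hbb-bt*, 85.1% of *Hba-a2* and 41.7% of *Rsad2*.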

How the results depend on the processing

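With 1 library per genotype no replicate could be left out. The Dnmt1iECKO members were deeper than the control members but fewer, at 65 against 132. No paired analysis was possible because each group has 1 library and no result comes from a test. The log2 ratio of the shares of proliferating ECs moved by less than its counting interval under every alternative, from 0.21 (*Cdh5* or *Pecam1* required) to 0.53 (no exclusion genes), and the interval lay above 0 without exclusion genes (0.21 to 0.86) and with at least 2 markers (0.025 to 0.75). The ratio of *Dnmt1* was −0.64 without the 10% of cells with the most UMIs. The balance of replication to mitotic UMIs was −0.30 when 1 exclusion UMI was allowed and −0.10 with each cell scaled to the same total. With a minimum of 50 UMIs, 423 genes were higher and 429 lower than control by 1.5-fold among 8708, with 300 UMIs 69 and 65 among 3343, and with 300 UMIs 220 were higher and 44 lower than in other ECs. As a mean over single cells 298 genes were higher and 291 lower. Without the top cell of each gene, a step that leans ratios lower, these were 136 and 285.
Directions turned in few cases. With at least 2 markers the condensin and chromatin list had a median of −0.0036 and the interferon list of 0.091, and with at least 4 markers *Fibin* was at 0.078. Without the 10% of deepest cells the replication list was at 0.041, the G1/S list at 0.052, *Spp1* at −0.98 and *Cxcl1* at −0.067. As a mean over cells the replication list was at 0.031. Alternatives chosen after seeing the data left out single cells. Without the Dnmt1iECKO cell with the most *Spp1* and the control cell with the most *Hbb-bs*, *Spp1* was at −0.98 and *Mgp* at −0.47. Without the top cell of each gene the leukocyte contact list was at −0.036, *Spp1* at −0.59 and *Mgp* at −0.042. The cause was not tested. Scrublet marked 4 control and 0 Dnmt1iECKO members among 257 and 263 marked cells.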

Other observations

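The following heat shock genes were chosen after their values were seen and are given as single genes. *Hspa1a*, an inducible chaperone, was at 289 and 93.9 CPM, a log2 ratio of −1.62, with −0.48 in other ECs. *Hspa1b* was at 232 and 67.8 CPM (−1.77, with −0.45 in other ECs), and the co-chaperone *Hsph1* at 100 and 25.0 CPM (−2.01, with −0.80). The ratio was −0.63 for *Hspa8*, −0.30 for *Hsp90aa1*, and −0.11 for both *Hspd1* and *Hspe1* of the mitochondrion.

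Among the genes lowest in proliferating compared with other ECs, several are markers of aerocytes or of lung fibroblasts. *Ednrb* stood at −2.0 in control and −2.70 in Dnmt1iECKO members, *Fibin* at −2.27 and −2.19, and *Tmeff2* at −1.68 and −2.23. *Inmt*, a methyltransferase strong in lung fibroblasts, was at −1.69 and −2.71, and *Mfap4*, a matrix protein gene, at −1.89 and −2.56. The summed fibroblast markers of the members were below those of other ECs in both libraries.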
